A study of Mus musculus with 6 samples.

Results

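The OCT4 and NANOG binding regions around 9 genes of the Nodal and BMP signalling pathways were examined. The genes were *Nodal*, *Tdgf1*, *Lefty1*, *Lefty2* and *Smad7*, termed the Nodal side here, and *Bmp4*, *Id1*, *Id2* and *Id3*, termed the BMP side. Every listed region within 20 kb of one of these gene bodies was taken, and 33 of the 23767 regions of the series met this rule. One of them lay between the adjacent *Lefty2* and *Lefty1* genes and was counted for both. Of the 33 regions, 26 were listed for OCT4 in at least 1 fraction and 13 for NANOG, 20 for OCT4 without NANOG and 7 for NANOG without OCT4.

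The cells were E14Tg2a mouse ESCs, a feeder-independent line, in which a destabilised GFP linked by a 2a peptide was placed at *Esrrb* (the Esrrb-2a-GFPd-IBIH line, also called E-GFPd1), and they were cultured with FCS and LIF. Fixed cells were sorted by GFP into the brightest 10% (Esrrb-GFP high), the 15% of cells directly above the negative gate (Esrrb-GFP medium) and cells without signal (Esrrb-GFP negative), which last fraction is also labelled Esrrb-low. Each fraction gave 1 OCT4 library, from a goat polyclonal antibody, and 1 NANOG library, from a rabbit polyclonal antibody made in-house, and each of the 6 libraries combined 3 ChIPs on chromatin from several sorts. All groups carry the same reporter, and there was no untreated or control group beside the fractions themselves.

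Each list holds positions only, after the authors had merged overlapping peaks of all libraries and called a peak lost in a fraction that kept less than 50% of its highest depth-normalised signal. A region is therefore either listed or not listed, absence from a list does not show that no factor was bound, and the depth and the signal behind a region are unknown. With 1 library per factor and fraction there is no replicate spread, and no p-value was computed. The 95% intervals beside shares are Wilson intervals and reflect only the number of regions counted. The OCT4 lists held 12449, 14464 and 10369 regions in high, medium and negative cells, and the NANOG lists 9425, 4729 and 286. Positions are on mm9 and are counted from 1. Distances run from the annotated start of the gene to the centre of the region, and the strand is that of the gene.

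NODAL is a ligand of the TGF-β family that signals through activin receptors together with the co-receptor CRIPTO, encoded by *Tdgf1*, and the signal is carried to DNA by SMAD2 and SMAD3 with partners such as FOXH1. LEFTY proteins are secreted antagonists of NODAL and are themselves induced by it, and SMAD7 is an inhibitory SMAD that acts inside the cell on TGF-β family receptors, those for BMP included. BMP4 signals through SMAD1 and SMAD5, and in ESCs its best known targets are the *Id* genes, whose products bind and block bHLH transcription factors that drive differentiation.

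A region listed for both factors in Esrrb-GFP high and for neither in Esrrb-GFP negative cells is termed Class I, and a region listed for both in high and for OCT4 without NANOG in negative cells is termed Class II. The sequences of 4 of the co-bound regions are given first, and their relation to presence in the lists was not tested. Each is the + strand of mm9, the whole region for the first 3 and the central 300 bases for *Id3*. Capitals mark matches to a composite Oct-Sox element (14 bases, up to 2 mismatches), the FOXH1 element AATNCACA, the ESRRB element TCAAGGTCA (up to 1 mismatch) or the KLF element GGGNGTGG, on either strand.
*Nodal* Class II region, chr10:60878792-60878971: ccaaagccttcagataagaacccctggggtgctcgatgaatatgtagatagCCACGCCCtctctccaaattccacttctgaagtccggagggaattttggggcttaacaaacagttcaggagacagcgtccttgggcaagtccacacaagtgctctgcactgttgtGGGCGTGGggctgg
*Lefty1* Class II region, chr1:182854992-182855211: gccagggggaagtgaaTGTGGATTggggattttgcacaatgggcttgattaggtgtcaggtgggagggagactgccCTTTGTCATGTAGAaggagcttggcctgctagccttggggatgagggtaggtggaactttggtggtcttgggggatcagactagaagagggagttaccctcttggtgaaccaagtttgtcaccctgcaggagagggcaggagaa
*Lefty2* Class II region, chr1:182818812-182819111: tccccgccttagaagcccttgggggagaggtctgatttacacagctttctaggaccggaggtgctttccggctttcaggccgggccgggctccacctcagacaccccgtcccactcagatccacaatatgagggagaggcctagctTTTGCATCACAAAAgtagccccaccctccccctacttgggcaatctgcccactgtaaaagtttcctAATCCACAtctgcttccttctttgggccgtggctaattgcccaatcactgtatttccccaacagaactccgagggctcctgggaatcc
*Id3* Class I region, chr4:135702732-135703031: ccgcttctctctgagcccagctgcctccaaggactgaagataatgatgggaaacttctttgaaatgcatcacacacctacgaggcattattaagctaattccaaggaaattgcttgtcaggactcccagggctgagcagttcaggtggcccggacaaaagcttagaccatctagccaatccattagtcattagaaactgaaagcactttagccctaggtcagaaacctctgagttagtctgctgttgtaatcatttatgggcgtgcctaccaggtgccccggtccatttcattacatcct

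For *Bmp4*, *Id1* and *Id2*, the region in the largest number of lists follows, to set beside those above, with a second region of *Id2*, the nearer to the start of those in the next largest number, and the second region of *Lefty1* because of its repeat. They are also given 5′ to 3′ on the + strand of mm9, with the same use of capitals, and only the second region of *Id2* holds a match (KLF).
*Bmp4* NANOG region, chr14:47011252-47011451: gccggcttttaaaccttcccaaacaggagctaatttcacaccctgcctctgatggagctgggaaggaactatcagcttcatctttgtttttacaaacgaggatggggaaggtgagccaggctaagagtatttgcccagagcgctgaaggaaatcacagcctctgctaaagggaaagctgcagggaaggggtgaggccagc
*Id1* NANOG region, chr2:152563432-152563491: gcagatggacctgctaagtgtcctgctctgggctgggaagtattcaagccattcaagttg
*Id2* OCT4 region of 3 fractions, chr12:25778112-25778151: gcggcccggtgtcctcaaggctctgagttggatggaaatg
*Id2* OCT4 region of high and medium cells, chr12:25781612-25781711: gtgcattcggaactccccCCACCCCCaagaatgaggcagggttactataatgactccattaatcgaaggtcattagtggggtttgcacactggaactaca
*Lefty1* intronic OCT4 region, chr1:182866952-182867031: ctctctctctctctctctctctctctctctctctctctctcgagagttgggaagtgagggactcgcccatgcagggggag

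All Class II regions lay on the Nodal side, which had 26 regions at 5 genes. The single Class I region lay on the BMP side, which had 7 regions at 4 genes, and the sides were not tested against each other. Each of the 5 Nodal-side genes had 1 Class II region, upstream of its start in every case, and none had a Class I region. The 4 BMP-side genes had no Class II region, and 1 of them, *Id3*, had a Class I region. Of all 22380 coding genes, 5.02% had a Class II region within 20 kb and 6.97% a Class I region, so the lack of Class II at 4 BMP-side genes is near the share of all genes. Both factors were thus listed together in high cells at 6 of the 33 regions. Of these 6, 5 were Class II, 83.3% (43.6 to 97.0), against 42.6% of the 3675 co-bound regions of the series, and 1 was Class I, 16.7%, against 55.3%. The presence chart by region shows both classes and the empty NANOG list of negative cells.

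**Figure D1:**
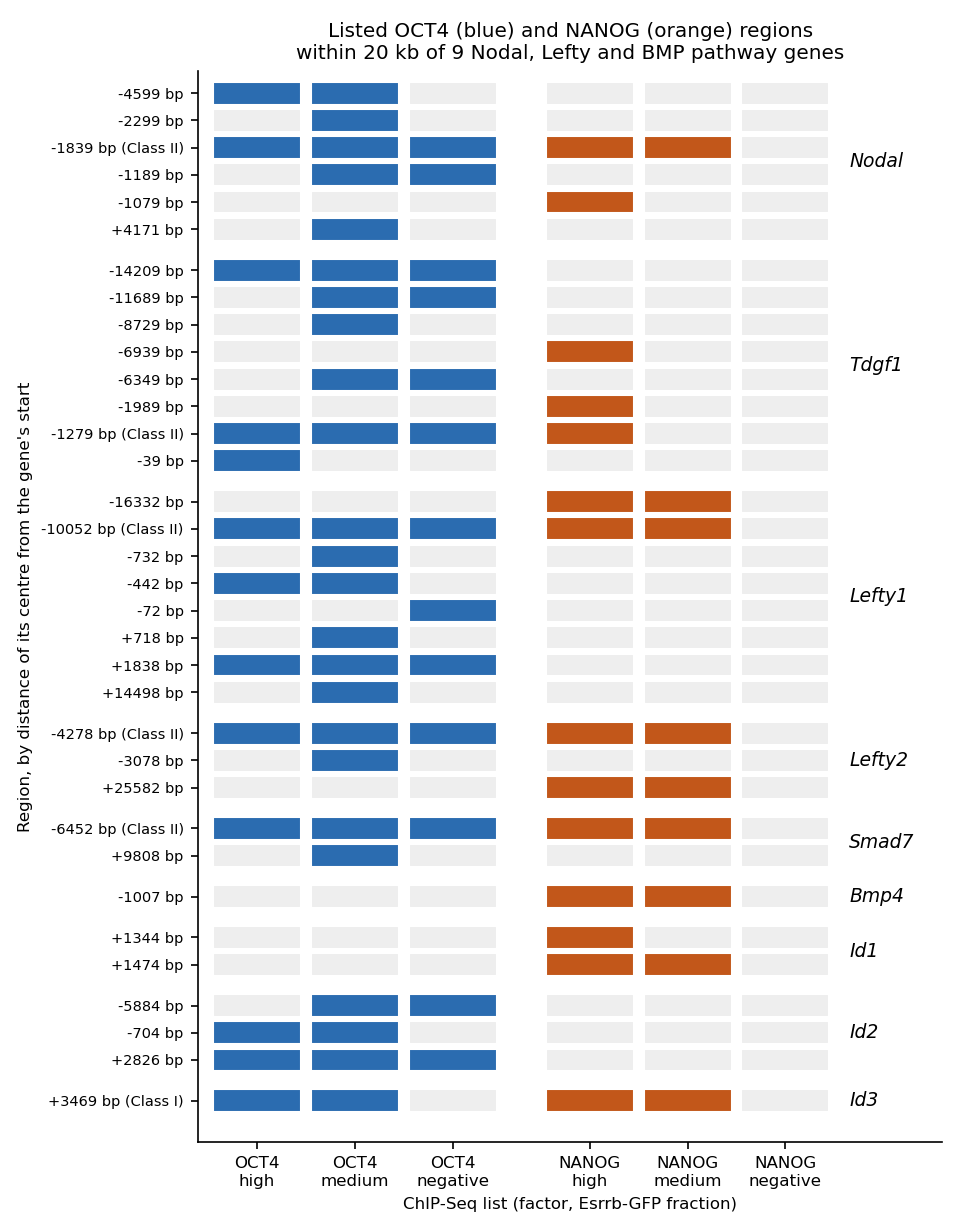
Presence of each region (rows, by distance of its centre from the start of the gene, in bp) in the 6 ChIP-Seq lists (columns, factor and Esrrb-GFP fraction); blue marks a region listed for OCT4, orange one listed for NANOG and grey one not listed. OCT4 fills 13, 24 and 13 regions in high, medium and negative cells and NANOG 13, 8 and 0; the region shared by *Lefty1* and *Lefty2* is drawn for both.

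*Nodal*, the ligand, lies on chr10:60880720-60888086 on the + strand and had 6 regions, 5 of them upstream. Its Class II region was centred 1839 bp upstream of the start, in intergenic sequence, and was listed for OCT4 in all 3 fractions and for NANOG in high and medium cells. The 180 bases printed above hold 2 KLF matches, GGGCGTGG, 1 on each side of the centre. No other *Nodal* region was listed for both factors.

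The other 5 *Nodal* regions were listed for 1 factor each. OCT4 was listed in high and medium cells at chr10:60876052-60876191, 4599 bp upstream, and in medium and negative cells at chr10:60879512-60879551, 1189 bp upstream. OCT4 was listed in medium cells alone at chr10:60878352-60878491, 2299 bp upstream, and at chr10:60884852-60884931, 4171 bp downstream of the start in an intron of *Nodal*. These medium-specific regions were the ones near *Nodal* with an ESRRB match. NANOG was listed in high cells alone at chr10:60879612-60879671, 1079 bp upstream. This region lies 60 bp beyond the end of the OCT4 region of medium and negative cells, so that neighbouring intervals carried different factors in different fractions.

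*Tdgf1* encodes the co-receptor CRIPTO. It lies on chr9:110842114-110848662 on the - strand and had 8 regions, all upstream of its start. The Class II region, 1279 bp upstream and intergenic, was listed for OCT4 in all 3 fractions and for NANOG in high cells alone, the single Class II region of the 9 genes without NANOG in medium cells. It was 300 bp wide and held 1 KLF match within 100 bp of its centre.

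The region nearest the start of *Tdgf1* was chr9:110848672-110848731, centred 39 bp upstream in intergenic sequence, where OCT4 was listed in high cells alone. It was the single OCT4 region of high cells near the 9 genes that was not listed in medium cells. It held 2 KLF matches. NANOG without OCT4 was listed in high cells alone at chr9:110850612-110850691, 1989 bp upstream, and at chr9:110855512-110855691, 6939 bp upstream. Both of these held an ESRRB match, and the second held an exact TCAAGGTCA.

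The remaining 4 *Tdgf1* regions, and the second of those NANOG regions, lie within *Lrrc2*, the next gene upstream, and have it as their closest coding gene. OCT4 was listed in all 3 fractions at chr9:110862832-110862911, 14209 bp upstream in an intron of *Lrrc2*. It was listed in medium and negative cells at chr9:110854992-110855031, 6349 bp upstream in an intron, and at chr9:110860312-110860391, 11689 bp upstream in a coding exon. It was listed in medium cells alone at chr9:110857372-110857411, 8729 bp upstream in an intron. With the closest coding gene as the criterion, 3 of the 8 regions stay with *Tdgf1*, the Class II region among them.

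*Lefty1* and *Lefty2* encode the secreted NODAL antagonists and lie on the same strand of chromosome 1, *Lefty2* on chr1:182823239-182829234 and *Lefty1* on chr1:182865153-182868531, both +. *Lefty1* had 8 regions and *Lefty2* 3. The Class II region of *Lefty1* was centred 10052 bp upstream of its start and that of *Lefty2* 4278 bp upstream. Both were listed for OCT4 in all 3 fractions and for NANOG in high and medium cells, as at *Nodal*. They were 220 and 300 bp wide.

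These *Lefty* Class II regions were the only ones of the 33 that held an Oct-Sox match, and also the only ones with a FOXH1 match, AATCCACA in both. The Oct-Sox match of *Lefty2*, TTTTGTGATGCAAA, lies on the - strand at chr1:182818958-182818971 with 1 mismatch, and that of *Lefty1*, CTTTGTCATGTAGA, on the + strand at chr1:182855068-182855081 with 2 mismatches. In each region 52 bases separate the Oct-Sox match from the FOXH1 match, which lies before it on the opposite strand, so the arrangement is the same but is turned round between the genes. Of all 23767 regions, 273 (1.15%) held both elements, and 3 held them in this order, orientation and spacing, of which 2 were these. The listed intervals align over 146 columns in opposite orientation with 94 identical bases, 64.4%, and this alignment spans both elements. Its score, 28, was the highest between any pair of the 33 regions apart from the repeat described below, and the next was 20. The arrangement was noticed in these sequences and is a description.

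Upstream of the start of *Lefty1*, within 1 kb, 3 regions were listed for OCT4 without NANOG, each in a different set of fractions. OCT4 was listed in medium cells alone at chr1:182864312-182864531, 732 bp upstream, in high and medium cells at chr1:182864672-182864751, 442 bp upstream, and in negative cells alone at chr1:182865052-182865111, 72 bp upstream. The last was the single OCT4 region of negative cells alone near the 9 genes. Within the gene, introns held a region of medium cells alone, chr1:182865852-182865891, and a region of all 3 fractions, chr1:182866952-182867031.

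The intronic region of all 3 fractions begins with the 41-base run of alternating C and T printed above, and the *Nodal* region 4599 bp upstream of the start holds a 44-base run of the same repeat on the other strand. These 41 bases were identical between them. Of all regions, 1.77% held a run of at least 30 bases of a repeated pair, and 2 of the 33 did, 6.06% (1.68 to 19.6). How reads that map to several places were treated is not given in the sources used here, and the part of the repeat in these OCT4 entries was not tested.

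The other regions of the *Lefty* genes were a region of medium cells alone 14498 bp downstream of the *Lefty1* start, chr1:182879632-182879671, in an intron of *Tmem63a*, and one of medium cells alone 3078 bp upstream of *Lefty2*, chr1:182820112-182820211, with an ESRRB match. The region shared by both genes, chr1:182848792-182848851, was listed for NANOG in high and medium cells and never for OCT4. Its closest coding gene is neither of them, and it lay 19558 bp from the *Lefty2* body, just inside the limit.

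*Smad7*, the intracellular inhibitor, lies on chr18:75527183-75555589 on the + strand and was the longest of the 9 genes, with 2 regions. Its Class II region, chr18:75520552-75520911, was centred 6452 bp upstream in intergenic sequence. With 360 bp it was the widest of the 5, and it was listed in the same 5 lists as those of *Nodal*, *Lefty1* and *Lefty2*. OCT4 was listed in medium cells alone at chr18:75536972-75537011, in an intron 9808 bp downstream of the start.

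*Bmp4*, the ligand of the BMP side, lies on chr14:47003195-47010344 on the - strand. It had 1 region, chr14:47011252-47011451, centred 1007 bp upstream and listed for NANOG in high and medium cells. OCT4 was listed at no region within 20 kb of *Bmp4*. The nearest region outside the limit, chr14:47032312-47032391 at 21968 bp from the gene body, was listed for OCT4 in high cells alone.

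The *Id* genes, BMP targets, differed among themselves in the factor listed. *Id1*, on chr2:152561987-152563146 and the + strand, had NANOG regions without OCT4, chr2:152563312-152563351 in high cells and chr2:152563432-152563491 in high and medium cells. Both lie just past the gene, 1344 and 1474 bp downstream of its start. *Id2*, on chr12:25778666-25780957 and the - strand, had the opposite, 3 OCT4 regions and no NANOG region. OCT4 was listed in all 3 fractions at chr12:25778112-25778151, 2826 bp downstream of the start and past the gene, in high and medium cells at chr12:25781612-25781711, 704 bp upstream, and in medium and negative cells at chr12:25786812-25786871, 5884 bp upstream.

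*Id3*, on chr4:135699412-135701670 and the + strand, had 1 region, chr4:135702672-135703091, which was listed for both factors in high and in medium cells and for neither in negative cells. It lay 3469 bp downstream of the start, past the gene, and at 420 bp was the widest of the 33. The central 300 bases printed above held no match to any element searched. The gene-level order was thus both factors at *Id3*, NANOG alone at *Bmp4* and *Id1*, and OCT4 alone at *Id2*.

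**Figure D2:**
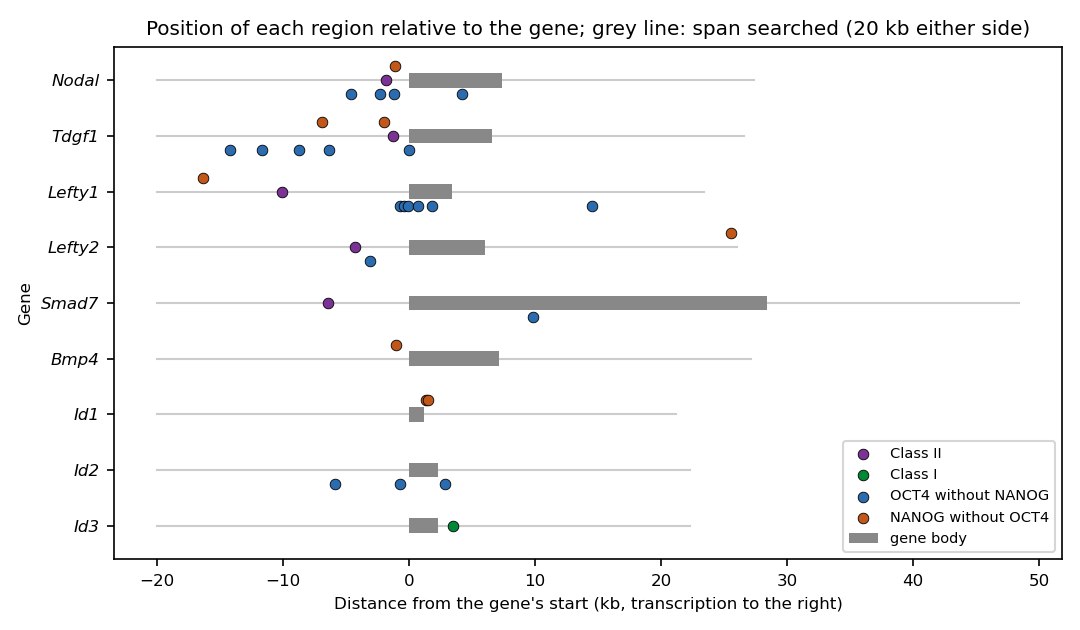
Position of each region around its gene, in kb from the gene's start with transcription to the right; grey bars are gene bodies, grey lines the spans searched, and regions with NANOG alone are drawn above the line, with OCT4 alone below it and with both on it. The 5 Class II points lie left of the start of *Nodal*, *Tdgf1*, *Lefty1*, *Lefty2* and *Smad7*, and the Class I point lies 3469 bp right of the start of *Id3*.

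Most regions lay upstream of the genes. Of the 33 regions, 24 were upstream of a start and 22 were within 5 kb of one, and 7 lay within 1 kb of a coding gene start, 21.2% (10.7 to 37.8), against 4.73% of all regions. The rule itself took regions near genes, while the regions of the series include those far from any gene, so nothing follows from the difference between these shares. Every one of the 9 genes had a region within 20 kb, against 46.4% of coding genes. An OCT4 region was found at 7 of 9, against 40.8%, and a NANOG region at 8 of 9, against 23.8%. *Nodal*, *Tdgf1* and *Lefty1* had 6 or more regions, as did 2.49% of coding genes. The median length of the 9 genes, 5996 bp, was below that of coding genes, 15420.5 bp, so that shorter spans were searched around them. The genes were chosen with earlier results known, and these shares are descriptions.

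Between fractions, OCT4 around these genes was listed most often in medium cells, whose OCT4 list was also the longest of the series. The counts in high, medium and negative cells were 13, 24 and 13, against 12449, 14464 and 10369 in the series. Of the 13 OCT4 regions of high cells, 1 was absent from the medium list, 7.69% (1.37 to 33.3), against 21.3% in the series, and 5 were absent from the negative list, 38.5% (17.7 to 64.5), against 45.1%. Of the 24 OCT4 regions of medium cells, 12 were absent from the high list, 50% (31.4 to 68.6), against 32.3%. Of the 26 OCT4 regions of any fraction, 8 were listed in medium cells alone, 30.8% (16.5 to 50), against 12.6%. The series value lies outside the interval for the last of these shares and inside it for the other 3. That last share was not recomputed under other settings. Its interval treats regions as independent, though several of the 8 lie at the same gene.

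The 8 regions of medium cells alone were found at all 5 Nodal-side genes and at no BMP-side gene. On the BMP side OCT4 was listed at 3 regions of *Id2* and 1 of *Id3* only, so none there is near the 12.6% of the series. The share of coding genes with a region of medium cells alone was not counted. Medium cells had OCT4 listed at 20 Nodal-side and 4 BMP-side regions. The split between the sides therefore cannot be told apart from this difference in number, and it was not tested. The 8 regions were 40 to 220 bp wide with a median of 60 bp, the median of such regions in the series as well. Of the 13 OCT4 regions of negative cells, 5 were absent from the high list, 38.5%, against 34.1%. They lay at *Nodal*, *Lefty1* and *Id2* (1 each) and *Tdgf1* (2), and 4 of them were also listed in medium cells. On the Nodal side 7 of the 10 OCT4 regions of high cells were also listed in negative cells, and on the BMP side 1 of 3. In the series 45.1% of such regions were absent from the negative list, and with so few regions neither count departs clearly from that.

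NANOG was listed at 13 regions in high cells and at 8 in medium cells, and 5 of the 13 were absent from the medium list, 38.5% (17.7 to 64.5), against 52.3%. All 13 were absent from the negative list, 100% (77.2 to 100), against 97.5% in the series. In negative cells NANOG was listed at 0 of the 33 regions, and a count of 0 allows a share of up to 9.09% when 3 counts of the total are taken as the limit (the Wilson upper limit is 10.4%), while 1.20% of all regions were in that list. Among coding genes 0.961% had such a region within 20 kb, and 0 of the 9 did. The absence at these genes is thus what nearly all NANOG regions of the series showed. OCT4 was listed with NANOG at 6 of the 13 OCT4 regions of high cells, 46.2% (23.2 to 70.9), against 29.5%, and NANOG with OCT4 at 6 of 13 NANOG regions, against 39.0%. Of the 5 Class II regions, 4 were listed for NANOG in medium cells, against 55.6% of Class II regions in the series.

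**Figure D3:**
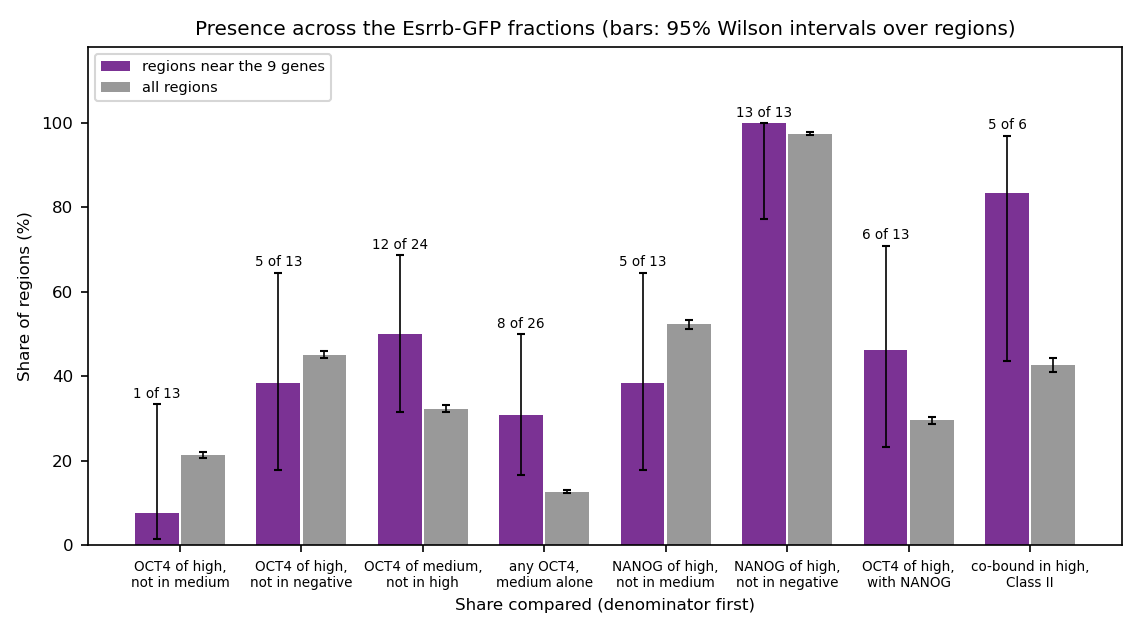
Share of regions (%) with the presence named below each pair of bars, for regions near the 9 genes (purple, count above) and for all regions (grey), with 95% Wilson intervals over regions as error bars. OCT4 in medium cells alone, 8 of 26 against 12.6%, is the pair in which the interval of the 9 genes starts farthest above the grey bar, and the NANOG pair for negative cells is 13 of 13 against 97.5%.

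Co-bound regions were the wider ones at these genes, as in the series. The 6 co-bound regions were 180 to 420 bp wide, with a median of 300 bp, and the other 27 were 40 to 220 bp wide, with a median of 60 bp. In the series the medians were 180 and 60 bp. The authors merged overlapping peaks of all libraries, and whether this made regions listed more often wider was not tested. The relation of width to the strength of binding was not tested either.

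Of the elements searched within 100 bp of the region centres, the octamer and Oct-Sox elements, counted as one group, were found in a share of these regions whose interval lay below the share of the series. For each element alone the interval included the series value. The octamer ATGCAAAT was found in none of the 33 regions, which allows up to 9.09% by the limit of 3 counts, against 7.88% of all regions, and the Oct-Sox element in 2, against 17.7%. Either was found in 2, 6.06%, against 23.2%, or in 2 of the 26 OCT4 regions, 7.69% (2.14 to 24.1), against 27.6%, and in 2 of the 5 Class II regions, against 34.2%. With at most 1 mismatch the Oct-Sox element remained at *Lefty2* alone. A FOXH1 match was found in 2 regions, against 4.68%, the SMAD palindrome GTCTAGAC in none, against 0.151%, and the BMP SMAD element GGCGCC in none, against 1.63%. ESRRB matches were found in 6 regions, 18.2% (8.61 to 34.4), against 11.2%, all on the Nodal side. The BMP side had 7 regions, so none there is near the 11.2% of the series. KLF matches were found in 7 of the 33, 21.2% (10.7 to 37.8), against 11.9%. These are matches of letters and do not show which factor was bound.

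Beyond the 9 genes, 60 other genes of the same pathways were counted by role from a fixed list. A region lay within 20 kb of 37 of the 60, against 46.4% of coding genes. An OCT4 region was found at 33 and a NANOG region at 13, against 40.8% and 23.8%. A Class I region was found at 6 and a Class II region at 2, against 6.97% and 5.02%. The NANOG, Class I and Class II counts are thus near the shares of all coding genes. Among the 34 other Nodal, activin and TGF-β genes, 23 had a region, 3 had Class I and 2 had Class II. Among the 26 other BMP genes, 14 had a region, near the 46.4% of coding genes, 3 had Class I and none had Class II. For Class II, 2 genes of 34 is close to the 5.02% of all coding genes.

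**Figure D4:**
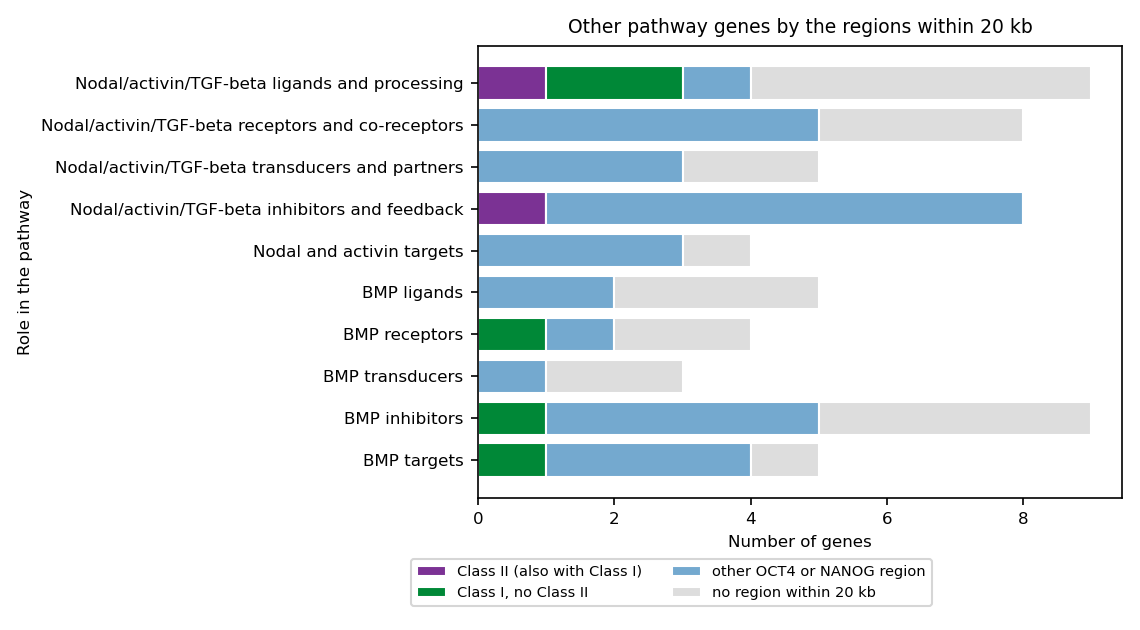
Number of the 60 other pathway genes in each role (horizontal axis, genes) that had a Class II region within 20 kb, a Class I region without Class II, another OCT4 or NANOG region, or none; *Tgif1*, under inhibitors and feedback, had both classes and is drawn as Class II. All 8 genes of the Nodal, activin and TGF-β inhibitors had a region, against 4 of 9 ligands and processing enzymes and 2 of 5 BMP ligands. Of all coding genes 46.4% had one.

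By role, the inhibitors and feedback genes of the Nodal side were the group in which every gene had a region. All 8 had an OCT4 region, against 40.8% of coding genes. An OCT4 region of negative cells was also found at all 8, and at 25 of all 60 genes of the list. No share of coding genes was counted for it. A NANOG region was found at 1 of the 8, *Tgif1*, against 23.8% of coding genes. The span searched grows with gene length, which differs among these genes, and the roles were not tested against each other. *Tgif1*, a repressor that binds SMAD2, had 9 regions, 3 of them Class II and 2 Class I. *Skil*, which encodes the SMAD corepressor SnoN, had 4 regions, all of them OCT4 without NANOG.

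Among the ligands, *Gdf3*, a ligand related to NODAL that also uses CRIPTO, had 7 regions, of which 1 was Class II, with OCT4 in all 3 fractions and NANOG in high cells. *Gdf3* neighbours *Nanog* and *Dppa3*, and regions within 20 kb of it can belong to that cluster. *Inhbb*, a subunit of activin B, had 2 regions, both Class I, and *Pcsk6*, a convertase that matures NODAL, had 1 Class I region among 2. Of the co-receptors, *Cfc1* and *Tgfbr3* each had a NANOG region listed in high and negative but not in medium cells, the only NANOG regions of negative cells at the 60 genes.

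On the BMP side, the Class I genes were the receptor *Bmpr1b*, the extracellular modulator *Twsg1* and the target *Msx2*, with 1 Class I region each. *Bmp7*, a BMP ligand, had 5 regions and *Msx1*, a target, 4, all of them OCT4 without NANOG. Of the 15 OCT4 regions of high cells at the 26 other BMP genes, 7 were also listed in negative cells, and of the 34 at the other Nodal-side genes 22 were. At the 9 genes these counts were 1 of 3 and 7 of 10, and the sides were not tested against each other. In the series 45.1% of the OCT4 regions of high cells were absent from the negative list.

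The limit of 20 kb left out regions close beyond it. The nearest was the *Bmp4* region at 21968 bp, followed by chr18:75504612-75504951 at 22232 bp from *Smad7*, listed for NANOG in high and medium cells. The next, 25758 bp from *Lefty2*, is the Class II region of *Lefty1*.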

How the data were processed

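ChIP-Seq for OCT4 and NANOG covered 3 sorted fractions of mouse ESCs, grouped by antibody and sorted fraction as labelled. The authors aligned the reads in GeneProf (the submitters' processing notes name Bowtie and mm9), called peaks with SISSRs and merged overlapping peaks of all datasets. The deposited lists hold a chromosome, a start and an end for each peak and no score, read number or signal, and starts were read as 0-based. Identical intervals were joined across lists, which left 23767 regions, none overlapping another. Gene bodies came from GENCODE vM1 on the same assembly (37310 genes, 22380 of them protein-coding). Motifs were scanned on both strands within 100 bp of region centres. No test across fractions was possible.

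All members were named, and other pathway genes where they had a Class I or Class II region or a NANOG region of negative cells, or ranked in the first 5 by number of regions. Some items that this rule names are not reported here. *Lrrc2* and *Tmem63a* are named as neighbours, chosen after their values were seen. Members, gene lists and motifs were chosen with earlier results of these data known. Alternatives were other distances, the closest coding gene only, joined or wider regions, and other motif settings. Python 3.11.15, numpy 2.4.6, Biopython 1.88 and matplotlib 3.10.9 were used, and on 5000 simulated regions 8 of 8 known answers were recovered.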

Additional observations from a re-analysis of the deposited data

How the results depend on the processing

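The 10 summary results were recomputed under the alternative settings, which gave 73 values. A share counted as moved when it left the 95% Wilson interval of the reported value, and a number when it changed by more than 1.5 times, and 2 values moved. When regions narrower than the median of a list (80 to 120 bp) were dropped from it, 16 of the 33 regions remained, and the share of OCT4 regions of high cells with NANOG was 75.0% (6 of 8). The share of regions with an octamer or Oct-Sox match, 6.06% (2 of 33), stayed within its wide interval of 1.68 to 19.6 but ran from 3.03% with at most 1 mismatch to 12.5% (2 of 16) among the wider regions, so its value is not precise. The 5 Class II regions and the 1 Class I region were counted under every setting for them. These were 10 or 50 kb, distance from the start site, the closest coding gene only, regions within 500 bp joined and wider regions. An overlap of 50% was also set, but no region overlaps another, so it could not move any value and is no check. Its values are included in the 73 and in the 63 of single genes. Numbers of regions of single genes moved in 13 of 63 values, among them *Tdgf1* from 8 to 3 with the closest coding gene only and *Id1* from 2 to 0 with wider regions. No paired analysis was possible because each factor and fraction has 1 library, and for the same reason no library could be left out. The lists carry no reads or signal, so a region just under the authors' threshold cannot be told apart from one with no binding, and depth per library, which can set the length of a list, is unknown.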
